A study of Homo sapiens with 8 samples.

Results

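Guide RNAs to nuclear pore and nuclear transport genes were followed in a dropout screen with RfxCas13d, a CRISPR nuclease that cuts RNA, in the established human melanoma line A375. The genes were taken by symbol, by a rule that used no measured value but was written with earlier results of these data known. They were nucleoporins, karyopherins (importins and exportins), the Ran cycle and mRNA export factors, leaving out guides typed as non-essential controls. This gave 1446 of the 46829 guides, on 191 of 6735 splice junctions and in 21 of 1250 genes. Each gene had from 1 to 27 targeted junctions, and a junction had at most 8 guides. There were 8 libraries, 2 replicates for every time point: Day 0 without treatment, and Days 7, 14 and 21 of doxycycline at 1 ug/ml. All groups carried the guide pool and the doxycycline-inducible TetO-RfxCas13d transgene in a monoclonal line, so 1 clone stands for the cell type. Guides were read from genomic DNA and no RNA was measured, so neither the knockdown of a target nor a marker of the cell line could be checked here. The labels do not say whether the replicates were separate cultures, and p-values measure only the spread between these samples. For junctions and guides this is a spread shared over the library, wholly or nearly so, and not that of the single junction or guide.

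The nuclear pore is a channel through the nuclear envelope, built from nucleoporins arranged as a Y-shaped scaffold complex, an inner ring, a central channel lined with disordered phenylalanine-glycine repeats, a membrane ring and a nuclear basket. Importins carry cargo inwards and exportins carry it outwards, and the small GTPase RAN sets the direction: RCC1 on chromatin loads it with GTP inside the nucleus, and RANGAP1 with RANBP1 promotes GTP hydrolysis in the cytoplasm. Bulk mRNA leaves by another route, through the THO complex, the NXF1 and NXT1 heterodimer and RAE1. Most of these steps are needed by any dividing cell.

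All values below are log2 fold changes of a guide's abundance against Day 0 of the same replicate, as the authors scaled them, so that -1 is a halving. A gene's or junction's value is the mean over its guides. Over the 1446 guides the median was -0.55 in replicate 1 and -0.51 in replicate 2 at Day 21, a mean of -0.53 ± 0.03 (SD, n = 2). Guides of the other scored genes had a median of -0.33 ± 0.04 and non-targeting guides one of -0.02 ± 0.03 (both SD, n = 2). The share of guides at -1 or lower was 39.1% ± 2.0 among nuclear pore and transport genes, 32.4% ± 1.6 among the other scored genes and 16.8% ± 0.59 among non-targeting guides (SD, n = 2). With 2 replicates an exact two-sided sign-flip test cannot go below p = 0.5, so no test of these shares is given. Replicates correlated more closely over these guides at Day 21 (Pearson r = 0.566, across guides) than at Day 7 (r = 0.346). Guides of the other scored genes did the same (r = 0.548 and 0.392), while non-targeting guides at Day 21 gave r = 0.034. Read depth was not given, but every value fits a ratio of whole numbers, which bounds the count behind it from below. By that bound the median guide had at least 89 reads in replicate 1 and 118 in replicate 2 at Day 0, and 55 and 87 at Day 21, any pseudocount included. By Day 21, 60 guides in replicate 1 (4.15%) and 53 in replicate 2 (3.67%) stood at the lowest number, 1, where a deeper loss could not have been seen.

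Of the 21 genes, 12 fell by Day 21 (57.1%; adjusted p under 0.05), against 20.8% of all 1223 genes tested, and none rose, against 0.654% of all genes (limma; at an unadjusted p under 0.05, 16 were lower and 0 higher). The same 12 genes had fallen by Day 14, when 22.1% of all genes had, and none had risen, against 0.736% of all genes. At Day 7 a single gene, RAN, had fallen, against 3.92% of all genes, and none had risen, against 0.0818%. The median of the 21 gene means went from -0.09 (Day 7) to -0.70 (Day 14) and -0.84 (Day 21), beside -0.03, -0.24 and -0.28 over all genes. These 1223 genes include 394 control genes, a type left out of the 21, and 5.08% of the controls fell by Day 21. The shares over all junctions and all guides given below include controls too. With at least 8 guides per gene, 15 of 20 genes fell by Day 21 (75.0%), against 368 of all 805 genes. At Day 21, 19 of the 21 genes were below 0 in both replicates, NUP43 and NXT1 being the exceptions, and 8 were below -1 in both. These 2 counts were not taken over all genes, whose median at Day 21 was itself below 0, at -0.28. The levels depend on where each library is set to 0. With every library centred on the median of all guides, which adds 0.33 in replicate 1 and 0.28 in replicate 2 at Day 21, only NUTF2 and RAN passed the test, and with the median over guides in place of the mean NUTF2, RAN and RANBP1 did. Of all genes, 5.15% passed with that centring and 2.04% by the median over guides. Centring on the non-targeting guides left 8 of the 21 (38.1%), against 16.4% of all genes, and KPNB1, NUP54, RAE1 and SEH1L lost their call. With all days fitted together and the replicate as a block, 16 of the 21 were called lower (76.2%) and 0 higher (limma), against 45.5% and 5.64% of all genes in that fit.

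The Ran cycle held the deepest losses. RAN, NUTF2 (NTF2, which carries GDP-bound RAN back into the nucleus) and RANBP1 were the 3 lowest genes, while RANGAP1 and RCC1 lay close to 0. Guides to RAN, on 1 junction with 8 guides at chr12:130875782-130875881, stood at -0.96 and -1.54 at Day 7 (replicates 1 and 2), -3.15 and -3.73 at Day 14, and -3.57 and -4.48 at Day 21. They were already low at the first time point in both replicates. At Day 21 the mean was -4.02 ± 0.65 (SD, n = 2; SE 0.28; adjusted p = 0.0107), which leaves 6.15% of the Day 0 abundance. The Day 7 mean of -1.25 passed the test as well (adjusted p = 0.00652), but this call was lost in several alternatives, among them centring on all guides and leaving out either Day 7 library.

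NUTF2 guides, 16 on 2 junctions between chr16:67868411 and 67870799, stood at -0.36 and -0.89 at Day 7, -3.11 and -3.28 at Day 14, and -3.57 and -3.69 at Day 21. The replicates were close together from Day 14 on. The Day 21 mean was -3.63 ± 0.08 (SD, n = 2; SE 0.15; adjusted p = 0.0107), and both junctions gave nearly the same value, -3.64 ± 0.05 and -3.62 ± 0.22 (SD, n = 2). NUTF2 is typed as not essential for Cas13 in the deposited table, yet ranked 26th of the 1223 genes from the lowest. RANBP1 guides, 6 on 1 junction at chr22:20125436-20126302, stood at -0.43 and -0.22, -2.72 and -2.93, and -3.52 and -2.66 at the 3 days, a Day 21 mean of -3.09 ± 0.61 (SD, n = 2; SE 0.27; adjusted p = 0.0128). Of the 30 guides to these 3 genes, 26 were at -1 or lower in both replicates at Day 21. These 3 genes had 4 targeted junctions in all, so each level rests on few sites in its transcript. The lowest junctions of some genes with more sites were about as low as that of RAN (-4.02): -4.25 in RAE1, -4.11 in NUP93 and -3.97 in XPO5. Whether the ranking follows from the number of sites averaged was not tested.

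Unlike RANBP1, the RAN regulators RANGAP1 and RCC1 did not pass the test. RANGAP1, with 66 guides on 9 junctions, stood at -0.10 and -0.32 at Day 21 (mean -0.21 ± 0.16, SD, n = 2; adjusted p = 0.416), and 1 of its 9 junctions passed the test for a fall. RCC1, with 40 guides on 5 junctions, stood at -0.19 and -0.21 (mean -0.20 ± 0.02, SD, n = 2; adjusted p = 0.399). Both gene means were 0.10 and 0.11 with all guides as the centre, so their sign is not settled. Junctions 1 and 2 of RCC1 share an end at 28529857, so their guides may share sequence.

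Among the carriers, the exportin XPO5 and the importins KPNB1 and TNPO3 fell, while IPO9 and IPO13 did not pass the test. XPO5 exports precursor microRNAs from the nucleus and had the most guides, 208 on 27 junctions between chr6:43524635 and 43575759. Its mean was -0.02 and -0.15 at Day 7, -0.93 and -1.19 at Day 14, and -1.60 and -1.38 at Day 21, where it averaged -1.49 ± 0.15 (SD, n = 2; SE 0.15; adjusted p = 0.0156). The loss was spread along the transcript: 26 of its 27 junctions were below 0 in both replicates, and 18 passed the test for a fall. TNPO3 imports splicing factors of the SR family. Its 93 guides on 12 junctions between chr7:128957315 and 129017956 averaged 0.04 and -0.26 at Day 7, -0.61 and -0.79 at Day 14, and -1.15 and -0.94 at Day 21 (mean -1.04 ± 0.15, SD, n = 2; adjusted p = 0.027).

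IPO9, a histone importer, stood at -0.54 and -0.50 at Day 21 over 135 guides (mean -0.52 ± 0.03, SD, n = 2; adjusted p = 0.0882, or 0.00733 with all days fitted together and the replicate as a block). Its junctions 1 to 10 held all 4 that passed the test for a fall, and junctions 11 to 17 lay between -0.53 and 0.28. This cut was drawn after the values were seen and is a description without a test. Junctions 4 and 5, at -0.45 and -0.37, lay within the range of the later ones. IPO13, which carries cargo both ways, stood at -0.13 and -0.06 over 129 guides (mean -0.09 ± 0.05, SD, n = 2; adjusted p = 0.69), with a positive mean of 0.21 when all guides were the centre and 0.04 by the median over guides.

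KPNB1, importin beta, which brings in cargo bearing the classical nuclear localisation signal, showed both directions within a single gene. Its 130 guides on 17 junctions averaged -0.28 and -0.78 at Day 7, -1.12 and -1.05 at Day 14, and -0.75 and -0.92 at Day 21 (mean -0.84 ± 0.12, SD, n = 2; adjusted p = 0.0405). That mean does not describe its guides: their median was -0.07, the SD between guides was 2.89, 54 guides were below 0 in both replicates and 52 above 0 in both, and the mean of the replicates' medians was 0.01. Of its 17 junctions, 8 fell and 5 rose. Counted from the 5′ end of the transcript, the 5 that rose were junctions 1 to 5, between chr17:47652876 and 47665056. In replicates 1 and 2 at Day 21 they stood at 0.83 and 1.54, 1.52 and 1.06, 1.15 and 1.48, 0.96 and 0.94, and 0.77 and 1.64, with adjusted p from 0.0014 to 0.0324. All 10 values were above 0, in junctions picked because they rose. The highest junction mean, 1.31 at junction 3, is 2.48 times the Day 0 abundance. Without Day 21 replicate 2, 3 of the 5 passed the test, and with guides of low Day 0 number left out, 4 did.

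The 40 guides on junctions 1 to 5 of KPNB1 averaged 0.19 ± 0.10 at Day 7, 0.68 ± 0.40 at Day 14 and 1.19 ± 0.20 at Day 21 (SD, n = 2). At Day 21, 28 of them lay above 0 in both replicates and 4 below 0 in both. The 74 guides on junctions 8 to 17 averaged -1.02 ± 0.70, -2.23 ± 0.23 and -2.08 ± 0.41 on the same days (SD, n = 2). Of these, 45 were below 0 in both replicates and 19 above 0 in both, so the 3′ side was mixed guide by guide as well. Between the 2 stretches, junction 6 had fallen to -1.08 ± 0.31, and junction 7 stood at 0.72 ± 0.53 without passing the test (SD, n = 2; adjusted p = 0.136). These stretches were drawn after the values were seen and are a description without a test. The lowest junctions were 11 (chr17:47674782-47676408) at -2.61 and -4.78, and 14 (chr17:47678189-47678307) at -3.38 and -3.80. Across the whole library 60 junctions rose, in 44 genes. Only KPNB1 had 5 of them, the most in any gene, and 9 genes, KPNB1 included, had junctions that passed the test in both directions.

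In the scaffold of the pore, NUP85 and SEH1L of the Y complex fell while NUP43 of the same complex did not pass the test. NUP85, with 47 guides on 6 junctions between chr17:75231423 and 75235577, stood at -0.13 and -0.45 at Day 7, -1.49 and -1.57 at Day 14, and -2.03 and -1.56 at Day 21 (mean -1.80 ± 0.33, SD, n = 2; SE 0.19; adjusted p = 0.0162). It was the lowest of the nucleoporins. SEH1L, with 21 guides on 3 junctions between chr18:12948232 and 12984039, stood at 0.03 and -0.10, -0.66 and -1.25, and -0.70 and -1.01 on the 3 days (Day 21 mean -0.86 ± 0.21, SD, n = 2; adjusted p = 0.0475). NUP43, with 32 guides on 4 junctions, stood at -0.22 in replicate 1 and 0.07 in replicate 2, a mean of -0.08 ± 0.21 (SD, n = 2; adjusted p = 0.785), and its sign changed with the centring.

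Of the inner ring, NUP93, which links the ring to the channel proteins, fell, and NUP35 did not pass the test. NUP93 guides, 134 on 17 junctions between chr16:56798538 and 56841704, stood at -0.16 and -0.32 at Day 7, -1.02 and -1.09 at Day 14, and -1.28 and -1.23 at Day 21 (mean -1.25 ± 0.04, SD, n = 2; adjusted p = 0.0184). NUP35 stood at -0.68 and -0.42 over 40 guides (mean -0.55 ± 0.18, SD, n = 2; adjusted p = 0.0987, or 0.00485 in the blocked fit of all days). The channel nucleoporin NUP54, with 16 guides on 2 junctions between chr4:76131284 and 76134174, stood at -0.17 and -0.25, -1.74 and -1.53, and -2.03 and -1.15 on the 3 days (Day 21 mean -1.59 ± 0.62, SD, n = 2; adjusted p = 0.0397). Its Day 21 call was lost with centring on the non-targeting guides.

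The basket nucleoporin NUP153, with 115 guides on 16 junctions between chr6:17616181 and 17706276, stood at -0.05 and -0.35, -0.87 and -0.98, and -1.17 and -1.07 on the 3 days (Day 21 mean -1.12 ± 0.07, SD, n = 2; adjusted p = 0.0216). NDC1, a transmembrane protein that anchors the pore, stood at -0.41 and -0.45 over 116 guides on 15 junctions (mean -0.43 ± 0.03, SD, n = 2; adjusted p = 0.125, or 0.0107 in the blocked fit of all days). The Y complex and the inner ring, the structural classes with more than 1 gene targeted, each held a gene that fell and a gene that did not pass the test.

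Of the mRNA export genes, RAE1 fell and THOC3 and NXT1 did not pass the test. RAE1, which binds NUP98 at the pore, had 59 guides on 8 junctions between chr20:57354128 and 57374606 and stood at -0.05 and -0.41, -0.51 and -0.76, and -0.69 and -0.79 on the 3 days (Day 21 mean -0.74 ± 0.07, SD, n = 2; adjusted p = 0.0494). A single junction of the 8 passed the test for a fall. THOC3, of the THO complex that loads export factors onto nascent mRNA, stood at -0.89 and -0.46 over 27 guides (mean -0.68 ± 0.31, SD, n = 2; adjusted p = 0.0882, or 0.00974 in the blocked fit of all days). NXT1, the small partner of the export receptor NXF1, had 8 guides on 1 junction at chr20:23351061-23353980. It stood at 0.14 and -0.04, -0.14 and 0.03, and 0.20 and 0.01 on the 3 days, a Day 21 mean of 0.11 ± 0.13 (SD, n = 2; adjusted p = 0.666), and was the highest of the 21 genes.

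Most of the loss came after Day 7. Within each replicate, 11 of the 21 genes fell further between Day 7 and Day 21 (52.4%), against 23.5% of all genes, and none rose, against 1.23%. NUTF2 moved by -3.22 in replicate 1 and -2.80 in replicate 2 over this interval (mean change -3.01 ± 0.29, SD, n = 2; adjusted p = 2.66e-06), and RAN by -2.61 and -2.94 (mean change -2.78 ± 0.24, SD, n = 2; adjusted p = 3.92e-06). KPNB1 and RAE1 had fallen against Day 0 at Day 21 but did not pass this test. The change of RAE1 was -0.50 ± 0.18 (SD, n = 2; adjusted p = 0.115). The mean of KPNB1 was -0.53, -1.08 and -0.84 on the 3 days, and the change of this mean from Day 7 to Day 21 was small beside the other genes that fell (-0.31 ± 0.24, SD, n = 2; adjusted p = 0.352). Its 2 stretches moved in opposite directions over this interval. Junctions 1 to 5 went from 0.19 to 1.19, and junctions 8 to 17 from -1.02 to -2.08. Calls in this comparison depend on the Day 7 libraries: without Day 7 replicate 1 no gene passed the test (limma with 1 sample in that arm and the spread shared over days; 10 genes at an unadjusted p under 0.05), and without Day 7 replicate 2 only NUTF2 did.

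At the level of junctions, 73 of the 189 tested fell by Day 21 (38.6%), against 25.3% of all 6401 junctions, and 5 rose, all in KPNB1, against 0.937% of all junctions. NUP153 junction 6, with 1 guide, and NUP35 junction 5, with 2, were too thinly covered to test. The test is lenient for thinly covered junctions: of 615 junctions of control genes, which have at most 3 guides each, 56 were called lower (9.11%) and 24 higher (3.90%). With junctions weighted by their number of guides, an alternative chosen after the data were seen, these counts became 36 and 7, and 77 of the 78 junctions of pore and transport genes kept their call. With the replicate as a block over all days, 101 were called lower (53.4%) and 8 higher (4.23%), against 39.3% and 4.76% of all junctions in that fit, so the share called higher was near the background.

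Junctions of a single gene often differed from each other. When each junction was set against the mean of the other junctions of its gene, 45 of 186 differed (24.2%), 21 lower and 24 higher, against 21.3% of all 6110 junctions tested in this way, so the share was near the background. By direction, 11.8% of all junctions were lower and 9.57% higher than the rest of their gene. The 45 lay in 11 of the 18 genes with at least 2 tested junctions, and 9 of these genes had junctions on both sides of the rest. These counts of genes were not taken over the whole library. The differences balance out within a gene by construction, so a deep junction moves the others of its gene above the rest. In NUP54, with 2 tested junctions, the 2 differences mirror each other. Calls on both sides are therefore partly built into the measure. By the same test 43 of 440 control junctions were called in each direction (9.77%), and 9 in each direction with the weighting by number of guides, under which 42 of the 45 kept their call. By the median over guides 20 of the 45 did.

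RAE1 showed the sharpest contrast. Its junction 6 (chr20:57367079-57368704) stood at -3.49 and -5.01 in replicates 1 and 2, a log2 difference of -4.08 from the other RAE1 junctions (SE 0.39; adjusted p = 3e-09). The mean of that junction, -4.25 ± 1.07 (SD, n = 2), leaves 5.26% of the Day 0 abundance. The other 7 junctions had means from -0.61 to 0.24 and none of them passed the test for a fall. Junction 6 holds 8 of the 59 guides of the gene.

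NUP93 junction 3 (chr16:56818738-56821503) stood at -3.80 and -4.43, a log2 difference of -3.03 from the other junctions of the gene (SE 0.36; adjusted p = 2.01e-07), and junction 8 (chr16:56832007-56832294) at -2.86 and -4.46 (difference -2.54, SE 0.39; adjusted p = 1.05e-05). In contrast, NUP93 junction 11 (chr16:56834254-56834369) stood at 0.32 and 0.06, a difference of 1.55 (SE 0.36; adjusted p = 0.00178). Low and high junctions were interspersed along this gene. The lowest junction of XPO5 was number 17 (chr6:43546752-43547607), at -4.04 and -3.90 (difference -2.58, SE 0.36; adjusted p = 2.19e-06), while junction 4 (chr6:43570684-43570856) stood at 0.09 and -0.09 (difference 1.54, SE 0.36; adjusted p = 0.0019). XPO5 had 4 junctions below and 5 above the rest of the gene.

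In NUP85, junction 6 (chr17:75235201-75235577) stood at -3.94 and -2.48 and junction 2 (chr17:75231638-75231827) at -0.44 and 0.26, on opposite sides of the rest of the gene (differences -1.65 and 2.09, adjusted p = 0.00132 and 4.94e-05). In NUP153, the first junction (chr6:17688618-17706276) stood at -2.65 and -3.12 (difference -1.88, SE 0.36). The junctions of KPNB1 that differed were 1 to 5 and 7 above the rest and 8, 10, 11 and 14 below it. Genes without a call of their own also had junctions apart from the rest. NDC1 junction 3 (chr1:53825936-53827998) stood at -1.91 and -2.25 (difference -1.76, adjusted p = 0.000442), THOC3 junction 4 (chr5:175961151-175961272) at -1.81 and -1.11 (difference -1.26, adjusted p = 0.0103), and IPO9 junction 6 (chr1:201855934-201857095) at -1.41 and -1.68 (difference -1.09, adjusted p = 0.0278).

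Position along the transcript had no common direction. Spearman's rho between junction order from the 5′ end and the Day 21 junction mean, given as a description across junctions that share a gene, was -0.61 in KPNB1 (17 junctions) and -0.75 in TNPO3 (12 junctions), 0.71 in IPO9 (17 junctions), and 0.08 in XPO5 (27 junctions). Junction means of the 2 replicates correlated at r = 0.845 over the 189 junctions at Day 21. The correlation was 0.954 over the junctions of RAE1 and 0.916 over those of KPNB1, but 0.133 over those of IPO13, whose junctions spread little.

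Of the 1446 single guides, 235 fell (16.3%), against 11.1% of all guides, and 12 rose, against 0.218%. The blocked fit of all days called 464 of them, 390 lower (27.0%) and 74 higher (5.12%), against 19.3% and 4.09% of all guides in that fit. Of 963 non-targeting guides, 10 were called lower (1.04%) and none higher (limma; 7 were higher at an unadjusted p under 0.05). Of the 12 that rose, 10 were guides to KPNB1, 7 of them on junctions 1 to 5, and IPO13 and NDC1 had 1 each. Both of the following guides were chosen after their values were seen. Number 2 on KPNB1 junction 1 went from a number of at least 41 at Day 0 to 2704 at Day 21 there, a log2 fold change of 5.91, but stood at 0.27 in replicate 1. By contrast, number 6 on KPNB1 junction 2 stood at 3.10 and 2.83.

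The lowest guides of the lowest genes show how far a single guide went. By the lower bound on its numbers, RAN guide 5 had 117 reads at Day 0 and 3 at Day 21 in replicate 1, against 107 and 1 in replicate 2, a mean of -6.05 ± 1.17 (SD, n = 2). RAN guide 7, on the same junction, went from 78 to 79 and from 63 to 58, and its log2 fold changes were 0.08 and -0.25. It was the only RAN guide not at -1 or lower in both replicates. NUP93 guide 4 on junction 8 had the lowest value of these, -7.37 ± 0.16 (SD, n = 2), from 160 and 163 at Day 0 to 1 in both replicates, so this value is set by the lowest number that could be read.

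The type column of the deposited table separated the genes in part. Of the 15 genes typed as essential for Cas13, 11 fell (73.3%) with a median gene mean of -1.04, against 200 of the 464 other genes of that type (43.1%) with a median of -0.68. Of the 6 typed as not essential, NUTF2 alone fell, and their median was -0.15. How the type was set is not stated, and it may rest on these same fold changes, so this count is no independent evidence. The GeCKO gene score, which the authors give per gene and whose column is named after a Cas9 knockout library, ran from -1.77 for KPNB1 to -0.872 over the 21 genes. Its correlation with the Day 21 gene mean was r = 0.515 and Spearman's rho 0.478, a description across 21 genes.

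A wider list of 35 other transport and export genes was compared with the table, where 8 of them were present and 7 could be tested. Of these 7, 2 fell by Day 21 (28.6%), near the 20.8% of all genes. MCM3AP, the scaffold of the TREX-2 export complex, stood at -1.16 and -1.18 (mean -1.17 ± 0.02, SD, n = 2; adjusted p = 0.0204), and PCID2, of the same complex, averaged -0.86 ± 0.20 (SD, n = 2; adjusted p = 0.0451). The cap-binding subunit NCBP1 stood at -0.39 and -0.30 and the export factor GLE1 at 0.05 and -0.15, and neither passed the test. PHAX, an adaptor for snRNA export, stood at -1.26 and -0.61 (adjusted p = 0.0728).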

How the data were processed

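Guides were amplified from genomic DNA of 8 libraries. The deposited table holds log2 fold changes, 1 per guide, day and replicate, and the authors' GeCKO gene score per gene, with type and junction category, per the file headers; Day 0 enters as the reference. Counter, pseudocount and scaling are not given in the sources used here. The submitters' processing notes name cutadapt 3.5, Bowtie 1.1.2 and hg38, without their roles. Junction coordinates are printed as the table lists them; all 191 lay inside the span of their gene in RefSeq GRCh38. Guide sequences were not used here.

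Every log2 value equalled a constant of its library plus the log2 of a quotient of 2 whole numbers (denominator at most 2000, tolerance 1e-09). These give lower bounds on counts, not counts, so the planned count test was replaced by its planned form for fold changes. Means over guides were fitted per day across all genes or junctions with at least 3 guides, and across all guides, with limma 3.58.1 in R 4.3.3 (empirical Bayes, Benjamini-Hochberg over all items, threshold 0.05). Days 21 and 7 were compared by the difference within each replicate. With 1 residual degree of freedom, gene variances borrow from the prior (2.42 degrees of freedom). Those of junctions rest on it wholly, so every junction has the same SE, 0.358, however far apart its replicates lie. Junction differences (29.4 prior degrees of freedom) and guides (32.3) rest on it almost wholly. The fits were run on simulated normal values drawn from limma's own variance prior. Differences in guide number, the lowest number and the shared Day 0 were not simulated, so faults from these cannot show. Of 100 planted changes of -2 and 100 of -4, 91 and 98 were recovered for genes and 99 and 100 for junctions. For guides only 1 and 62 were.

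Same-numbered libraries pair across days: they share a Day 0 reference, and over all guides their deviations from the day means correlated at 0.484 (Days 7 and 14), 0.411 (Days 7 and 21) and 0.647 (Days 14 and 21). Members, lists and the genes, junctions and guides named were chosen by rules written with earlier results of these data known: genes that passed at Day 21 and the 3 lowest and highest, junctions apart from the rest of their gene, and the lowest guide of the lowest genes. Alternatives covered centring, median over guides, robust variance, a minimum implied Day 0 number of 50, guide minimums, fits of all days with and without the replicate block, and each library left out.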

Additional observations from a re-analysis of the deposited data

Results flagged for a closer look

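The change between Day 7 and Day 21, taken within each replicate, passed the test in 11 genes, that is, their effect against Day 0 differed between these days. It was -3.01 for NUTF2, -2.78 for RAN and -2.76 for RANBP1 (adjusted p = 2.66e-06, 3.92e-06 and 5.73e-06). Among the nucleoporins it was -1.51 for NUP85, -1.38 for NUP54, -1.01 for NUP93, -0.92 for NUP153 and -0.82 for SEH1L. Among the carriers it was -1.40 for XPO5 and -0.94 for TNPO3, and it was -0.81 for THOC3, which did not pass the test at Day 21 itself. Both replicates moved downwards in each of the 11, which were chosen by a test on these same differences.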

How the results depend on the processing

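At Day 21, 12 genes became 2 with all guides as the centre (9.52%, against 5.15% of all genes) and 8 with non-targeting guides (38.1%, against 16.4%). By the median they became 3 (14.3%, against 2.04%). At Day 14, 12 became 4 by the median (19.0%, against 7.28%). The 1 gene at Day 7 became 0 with centring on all guides (limma; 3 genes had an unadjusted p under 0.05), with centring on control guides (7), with robust variance (4), with implied Day 0 numbers of at least 50 (4) and in a fit of all days without a block (4), and 2 by the median. By the median at Day 7, 4.58% of all genes passed. The 11 genes of Day 21 versus Day 7 became 4 with all guides as the centre (19.0%, against 9.81% of all genes). They became 7 with control guides (33.3%, against 15.8%) and 3 by the median (14.3%, against 3.76%). The 45 junctions that differed from the rest of their gene became 21 by the median (11.3%, against 8.05% of all junctions). The 247 guides became 464 with the replicate block (32.1%, against 23.4% of all guides). With the block 16 genes passed at Day 21 (76.2%, against 51.1% of all genes in that fit), 16 at Day 14 (against 40.5%) and 13 between Day 7 and Day 21 (against 31.0%), and 109 junctions passed (57.7%, against 44.1% of all junctions). Leaving out 1 library changed the medians of the gene means. Without Day 21 replicate 1 the median at Day 21 was -0.92 over the 21 genes and -0.28 over all genes. Without Day 21 replicate 2 these were -0.75 and -0.37. At Day 14 they were -0.79 and -0.23 without replicate 1 of that day, and -0.61 and -0.30 without replicate 2. Fits with 1 library left out share the spread over days, so that the lone library is assumed to vary like the rest. NUTF2 and RAN passed at Day 21 in 11 of 11 alternatives and RANBP1 in 9 of 10.

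Signs turned in 5 genes. KPNB1 was 0.0103 by the median over guides. With all guides as the centre RANGAP1 was 0.10, RCC1 0.11, IPO13 0.21 and NUP43 0.23. IPO13 was 0.041 by the median. NUP43 was 0.073 without Day 21 replicate 1 and -0.224 without replicate 2. The cause was not tested. The test with another count normalization was not run, since no counts were used. Guides at the lowest number, 60 and 53 at Day 21, limit how deep a loss can be read, and 2 replicates limit every p-value.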

Other observations

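Guides on a junction are numbered from 1 to 8. Over the nuclear pore and transport genes the mean log2 fold change at Day 21 was lowest for number 4 (-1.07 ± 0.01, SD, n = 2) and highest for number 2 (-0.73 ± 0.02, SD, n = 2). Over the other scored genes it was also lowest for number 4, at -0.76. What the number stands for is not given in the sources used here.

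Junction categories could be set side by side within 4 genes at Day 21. In THOC3 the 1 junction called common, junction 4, stood at -1.46 ± 0.50, and the 3 called partial_unique averaged -0.35 ± 0.23 (SD, n = 2). In RCC1 the 3 common junctions averaged -0.07 ± 0.08 and the 2 partial_unique ones -0.40 ± 0.16. In IPO13 the 3 common junctions averaged 0.07 ± 0.41 and the 15 fully_unique ones -0.12 ± 0.01. In NUP43 the 1 common junction stood at -0.36 ± 0.44 and the 3 fully_unique ones averaged 0.02 ± 0.43. In THOC3 and NUP43 the contrast thus rests on 1 junction. The order of the categories was not the same in these genes, and no test was made.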
